A study of Mus musculus with 9 samples.

Results

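The genes described here are 10 transcription factors that set up or maintain the T cell lineage: Tcf7, Lef1, Bcl11b, Gata3, Runx1, Runx3, Tox, Zbtb7b, Ets1 and Satb1. They are 10 of the 46078 gene rows of the count table, each matched once by its symbol. The set was chosen from measured values, with the comparison of lymphoma and CD4 in these same libraries already known, so its values in that comparison are a description and carry no test.

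Sequencing of transcript 3′ ends was carried out on 9 mouse RNA samples. The lymphoma group consists of T cell lymphoma cells whose growth MYCN induced, taken from the thymus (6 libraries, numbered 34, 53, 56, 70, 72 and 86 by their labels). The CD4 group consists of control CD4+ T cells taken from the spleen (3 libraries, numbered 1, 2 and 3). MYCN belongs to the MYC family of transcription factors, and the series asks how its aberrant expression alters gene regulation by EZH2, a histone methyltransferase. Both groups are of the C57BL/6J strain and no other allele or agent is given for either. The promoter that drives MYCN, the age of the animals, the way the CD4+ T cells were isolated and whether each library came from a separate animal or an independent tumour are not given in the sources used here. The p-values below therefore measure only the spread between these samples, part of which may be technical. Tissue and group change together, so thymus against spleen and lymphoma against normal T cells cannot be told apart.

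T cells arise in the thymus from blood-borne progenitors that receive Notch signals. Tcf7 and Gata3 are switched on early, Bcl11b then closes off other fates, and Runx, Ets and Satb1 proteins act with them on T cell receptor and coreceptor genes. At the choice between the helper and cytotoxic lineages, Gata3, Tox and Zbtb7b favour CD4 cells and Runx3 favours CD8 cells.

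Gene counts per library were 11170704 to 15769679 in lymphoma and 8099960 to 10808828 in CD4, and reads within genes made up 38.7 to 49.1% and 27.8 to 35.0% of all reads. The T cell label was checked on Cd3d, a chain of the T cell receptor complex, which lay at 386 to 512 counts per 1000000 (CPM) in lymphoma and 420 to 454 in CD4. Of the 10 T cell markers, 4 had the higher mean in lymphoma and 6 the lower. Mean CPM was 136 against 302 for Cd2, 250 against 449 for Cd28 and 133 against 78.2 for Zap70. The 10 summed to 2285 to 3998 CPM in lymphoma and 2956 to 3335 in CD4, and without Thy1 to 1767 to 2464 and 2578 to 2873. The coreceptor gene Cd4 lay at 6.04 to 71.9 CPM in lymphoma and 199 to 263 in CD4. The CD4 libraries also held RNA of other cells: the 10 B cell markers summed to 1626 to 1855 CPM there against 18.5 to 61.8 in lymphoma, and the CD8 markers Cd8a and Cd8b1 to 64.7 to 76.3 CPM. Among the lymphomas, library 53 stood apart in several marker sums, with 77.0 CPM of CD8 markers where the others had at most 2.27, and library 56 held 2173 CPM of myeloid markers where the others had 54.8 to 771, most of it from S100a8 (1035 CPM) and S100a9 (989 CPM). Erythroid markers summed to 13.3 to 46.7 CPM in lymphoma and 1.10 to 3.63 in CD4, and without Hemgn, which made up most of the sum in lymphoma, to 1.92 to 3.57 and 1.10 to 2.86. Stromal and thymic epithelial markers summed to 97.7 to 180.4 CPM in lymphoma and 219 to 234 in CD4, but without the vessel and blood cell gene Pecam1 to 38.4 to 99.2 and 28.8 to 35.8, and 8 of the 12 had the higher mean in lymphoma. In bulk RNA, fewer cells of a type and less RNA per cell cannot be told apart, which applies to every value below.

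Of the 10 factors, 6 were lower in lymphoma and 2 were higher by the threshold used over all genes (edgeR quasi-likelihood test, Benjamini-Hochberg adjusted p under 0.05), while Runx1 and Tox did not pass it. The same threshold was passed by 46.6% of the 15401 genes tested, 24.7% of them higher and 21.9% lower in lymphoma. The lymphoma and CD4 libraries did not overlap for 8 of the 10 factors, and they did not overlap for 44.9% of all genes tested. Because the comparison was known when the factors were chosen, nothing is read from these counts. The median log2 fold change of the 10 factors was -0.83, and that of all tested genes was 0.04.

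**Figure D1:**
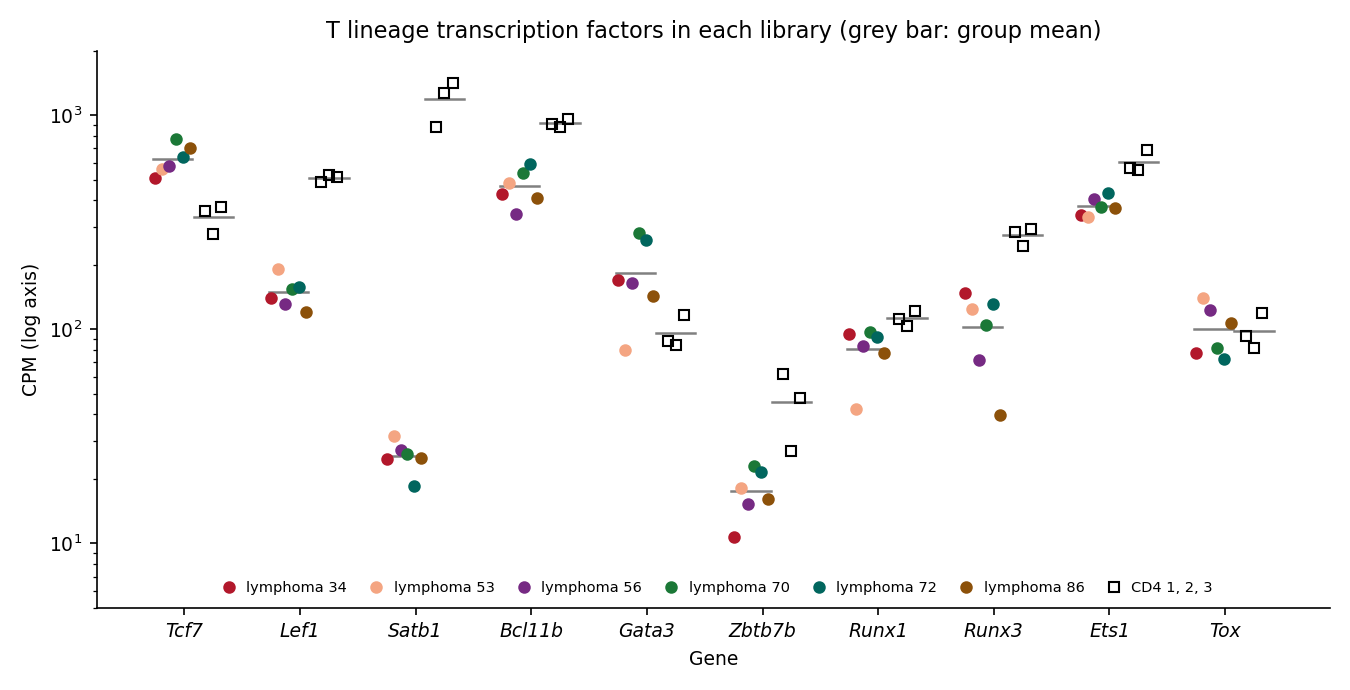
CPM of each factor in each library on a log axis, with filled points for the 6 lymphomas, open squares for the 3 CD4 libraries and grey bars for group means. Satb1 shows the widest gap, at 18.5 to 31.6 CPM in lymphoma and 879 to 1416 in CD4, and the points of Gata3 and Tox overlap between the groups.

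Tcf7 encodes TCF-1, a high mobility group (HMG) box protein that is among the first T lineage factors to appear in progenitors and stays on in naive T cells. The gene (ENSMUSG00000000782) lies on the minus strand at chr11:52252371-52283014 of GRCm38. Its level in lymphoma ran from 506 CPM in library 34 to 775 in library 70, with a median of 609, and the CD4 libraries 1, 2 and 3 held 357, 279 and 372 CPM. Every lymphoma lay above every CD4 library. The group means were 627 ± 98.4 CPM (SD, n = 6) and 336 ± 49.6 (SD, n = 3), a log2 fold change of 0.90 (SE 0.175).

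Lef1 is the close relative of Tcf7, binds the same DNA sequence and shares many of its tasks in thymocytes and naive T cells. The gene (ENSMUSG00000027985) lies on the plus strand at chr3:131110471-131224356. The lymphomas held 121 CPM (library 86) to 191 CPM (library 53), with a median of 147, against 487, 525 and 514 CPM in CD4 1, 2 and 3. All 6 lymphomas were thus below all 3 CD4 libraries, the opposite order to that of Tcf7. Group means were 149 ± 24.6 CPM (SD, n = 6) for lymphoma and 509 ± 19.95 (SD, n = 3) for CD4, which makes a log2 fold change of -1.77 (SE 0.155). A same-strand transcript inside the locus, Gm42449, had 6 to 716 counts per library, at most 16.4% of those of Lef1.

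The differing directions of the paired factors show most plainly within single libraries, where no scaling between libraries enters. The count of Tcf7 divided by that of Lef1 was 2.95 to 5.78 in the lymphomas and 0.532 to 0.733 in the CD4 libraries. This ratio was highest in lymphoma 86 and lowest, among the lymphomas, in library 53, and the groups stayed apart. On the log2 scale the ratio was 2.07 ± 0.345 (SD, n = 6) in lymphoma and -0.61 ± 0.262 (SD, n = 3) in CD4, a difference of 2.68 that ranged from 2.53 to 2.78 when any 1 library was left out. Since reads per transcript depend on each gene's 3′ end, the ratio is read only for its change between libraries.

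Satb1, a nuclear protein that anchors chromatin loops and is abundant in thymocytes, had the widest difference of the 10. The gene (ENSMUSG00000023927) lies on the minus strand at chr17:51736187-51833290. Lymphoma levels spanned 18.5 CPM (library 72) to 31.6 CPM (library 53) around a median of 25.5, and CD4 1, 2 and 3 held 879, 1263 and 1416 CPM. The gap between the groups was far wider than the spread within either. Means were 25.5 ± 4.25 CPM (SD, n = 6) and 1186 ± 277 (SD, n = 3), giving a log2 fold change of -5.54 (SE 0.200), a fitted 46.4-fold difference. Leaving out any 1 library moved the log2 fold change only between -5.70 and -5.38.

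The annotation places further transcripts inside the Satb1 locus on the same strand, and their counts were low in the same libraries. E430014B02Rik, C230085N15Rik, 5830444F18Rik and Gm37248 share 0 exon bases with Satb1, so they lie within its introns. C230085N15Rik had 388.8 ± 100 CPM (SD, n = 3) in CD4 and 6.11 ± 1.28 (SD, n = 6) in lymphoma. The log2 fold changes of the 4 rows were -5.79 (SE 0.428), -5.99 (SE 0.230), -5.95 (SE 0.266) and -6.21 (SE 0.443), in the order named. The strand setting of the counting is not given in the sources used here, so reads of overlapping transcripts on either strand cannot be told apart.

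The 250 bases before the most upstream Satb1 start that RefSeq lists (GRCm38.p6) are shown because the row of the gene and the rows within its introns were all lower in lymphoma. The stretch is chr17:51833291-51833540, minus strand, and is printed in lower case throughout because none of the motifs searched was found in it.
Satb1: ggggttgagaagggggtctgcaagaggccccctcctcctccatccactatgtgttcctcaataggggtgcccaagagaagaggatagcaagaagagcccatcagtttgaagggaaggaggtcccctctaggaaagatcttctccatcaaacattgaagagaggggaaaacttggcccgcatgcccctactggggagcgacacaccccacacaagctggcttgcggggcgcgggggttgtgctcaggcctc
Motifs were searched on both strands. An E-box, which MYC family proteins can bind, was searched as CACGTG. The motif of the TCF/LEF proteins was searched as ATCAAAG. That of the RUNX proteins was taken as TGTGGT. For GATA factors the search used the letters AGATAA. The motif of the ETS family was searched as CCGGAAG. Among 27026 windows of 250 bases before RefSeq gene starts, 6.04% held the E-box, 3.26% the TCF/LEF motif, 14.2% the RUNX motif, 10.2% the GATA motif and 7.07% the ETS motif. RefSeq windows were present for 8 of the 10 factors, Tox and Ets1 being those without one. Of these 8, 1 held an E-box (Runx1), 1 held the RUNX motif (Runx3) and 0 held any of the other 3. Only the most upstream listed start of each gene was searched. RefSeq lists 5 starts for Satb1, 4 for Lef1 and 2 each for Tcf7, Runx1, Runx3 and Zbtb7b, so their other starts were not examined. A match is a stretch of letters and shows no binding.

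Bcl11b is the zinc finger protein that completes commitment to the T lineage and suppresses natural killer cell and progenitor genes. The gene (ENSMUSG00000048251) lies on the minus strand at chr12:107910403-108003602. The lymphomas held 344 CPM (library 56) to 591 CPM (library 72), median 456, against 911 (CD4 1), 885 (CD4 2) and 960 CPM (CD4 3). Each lymphoma lay below each CD4 library, and the CD4 libraries differed little among themselves. The group means of 465 ± 90.0 CPM (SD, n = 6) and 919 ± 38.1 (SD, n = 3) gave a log2 fold change of -0.98 (SE 0.169). Relative to Bcl11b, Tcf7 was higher in every lymphoma, with count ratios of 1.08 to 1.71 against 0.316 to 0.391 in CD4.

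Gata3, a zinc finger factor needed at T cell entry and again for CD4 and type 2 helper cells, was the most uneven of the factors with higher lymphoma means. The gene (ENSMUSG00000015619) lies on the minus strand at chr2:9857078-9890034. Its level was 170.5, 80.4, 165, 282, 260 and 143 CPM in lymphomas 34, 53, 56, 70, 72 and 86, and 88.6, 84.4 and 117 CPM in CD4 1, 2 and 3. Of the 6 lymphomas, 5 lay above all CD4 libraries, and lymphoma 53 lay below them all. The means were 184 ± 75.2 CPM (SD, n = 6) and 96.5 ± 17.5 (SD, n = 3), and the log2 fold change was 0.93 (SE 0.339). Gata3 passed the threshold with all libraries, but no longer did so in 13 of 17 alternative settings, among them the removal of any 1 CD4 library or of lymphoma 34, 56, 70 or 72 (log2 fold changes of 0.80 to 1.10 over these removals and those of 53 and 86). It passed with lymphoma 53 or 86 left out.

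Zbtb7b encodes ThPOK, the factor that fixes the CD4 helper fate by keeping Runx3 and the cytotoxic programme off. The gene (ENSMUSG00000028042) lies on the minus strand at chr3:89377644-89394776. The lymphomas held 10.8 CPM (library 34) to 22.9 CPM (library 70), median 17.1, and CD4 1, 2 and 3 held 62.1, 27.1 and 47.9 CPM. The groups did not overlap, although CD4 2 came close to the highest lymphoma. Means of 17.5 ± 4.45 CPM (SD, n = 6) and 45.7 ± 17.6 (SD, n = 3) gave a log2 fold change of -1.39 (SE 0.282), which ran from -1.65 to -1.09 when 1 library was left out. An antisense transcript across the locus, Gm15417, had 11.9 to 49.1% as many counts as Zbtb7b in lymphoma and 14.4 to 24.3% in CD4. Without a stated strand setting, reads of these transcripts cannot be told apart.

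Gata3 acts ahead of Zbtb7b in helper cell development, and the balance of both differed between the groups. The count of Gata3 divided by that of Zbtb7b was 4.44 in lymphoma 53 and 8.84 to 15.8 in the other lymphomas, against 1.43, 3.11 and 2.43 in CD4 1, 2 and 3. Lymphoma 53 was nearest to the CD4 libraries, yet the groups did not overlap. The difference of the log2 ratios was 2.18 and stayed between 1.86 and 2.42 with any 1 library left out.

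Runx1 and Runx3 are runt domain proteins that bind the same sequence, Runx1 mainly in progenitors and early thymocytes and Runx3 in CD8 and other cytotoxic cells, where it silences Cd4. Runx1 (ENSMUSG00000022952) lies on the minus strand at chr16:92601466-92826149. It was measured at 94.6, 42.4, 83.2, 97.4, 91.6 and 77.5 CPM in lymphomas 34, 53, 56, 70, 72 and 86, and at 112, 104 and 122 CPM in CD4 1, 2 and 3. All lymphomas were below all CD4 libraries, lymphoma 53 by the most. The means were 81.1 ± 20.4 CPM (SD, n = 6) and 112 ± 9.04 (SD, n = 3). The log2 fold change of -0.47 (SE 0.229) did not pass the threshold with all libraries and did so, at -0.34, in 1 of 17 alternative settings, the one without lymphoma 53.

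Runx3 (ENSMUSG00000070691) lies on the plus strand at chr4:135120652-135177990. Lymphomas 34, 53, 56, 70, 72 and 86 held 148, 124, 71.7, 104, 131 and 39.6 CPM, and CD4 1, 2 and 3 held 285, 246 and 294 CPM. The lymphomas were all lower than the CD4 libraries and differed more among themselves than for any other of the 10 factors, by 3.72-fold from lowest to highest. Means of 103 ± 40.5 CPM (SD, n = 6) and 275 ± 25.3 (SD, n = 3) gave a log2 fold change of -1.42 (SE 0.319). The CD4 libraries also contained more RNA of the CD8 markers (64.7 to 76.3 CPM, against at most 2.27 in 5 of the 6 lymphomas) and, of 5 natural killer markers, more of Klrd1 (37.7 to 47.8 CPM against 0 to 1.95) and Ncr1 (8.26 to 9.35 against 0 in every lymphoma, at least 32.2-fold lower against a floor of 3 counts per library). Eomes was likewise lower in every lymphoma than in every CD4 library, but did not pass the threshold (log2 fold change -2.97, SE 1.78). Klrb1c overlapped between the groups, at 0 to 61.15 CPM in lymphoma and 22.08 to 32.44 in CD4. It was highest in lymphoma 86, the library with the least Runx3. The summed natural killer markers were nevertheless higher in lymphoma, at 316 to 803 CPM against 166 to 173, through Gzma alone (298 to 785 against 63.3 to 73.9). The part of such cells in the Runx3 values was not tested. Lymphoma 53, whose CD8 markers were at CD4 levels, had 124 CPM of Runx3.

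The balance of the runt factors differed from tumour to tumour. The count of Runx1 divided by that of Runx3 was 0.641, 0.342, 1.16, 0.934, 0.701 and 1.96 in lymphomas 34, 53, 56, 70, 72 and 86, against 0.392, 0.421 and 0.415 in CD4 1, 2 and 3. In 5 lymphomas the ratio exceeded all CD4 values and in lymphoma 53 it lay under them. The mean log2 ratio was -0.27 ± 0.852 (SD, n = 6) in lymphoma and -1.29 ± 0.0534 (SD, n = 3) in CD4, a difference of 1.02 that became 0.77 without lymphoma 86 and 1.28 without lymphoma 53.

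Stretches before the RefSeq starts of both runt genes are shown because these are the only windows of the 8 in which a searched motif was found (capitals). For Runx1 the 30 bases at chr16:92826128-92826157 (minus strand, GRCm38.p6) hold an E-box 71 bases before the RefSeq start, and most of them lie inside the longer gene that GENCODE draws. For Runx3 the 250 bases at chr4:135120395-135120644 (plus strand) hold the RUNX motif in duplicate, 134 and 126 bases before the start, read as its complement ACCACA on the gene strand.
Runx1: catcacttaagtCACGTGattggcaagagc
Runx3: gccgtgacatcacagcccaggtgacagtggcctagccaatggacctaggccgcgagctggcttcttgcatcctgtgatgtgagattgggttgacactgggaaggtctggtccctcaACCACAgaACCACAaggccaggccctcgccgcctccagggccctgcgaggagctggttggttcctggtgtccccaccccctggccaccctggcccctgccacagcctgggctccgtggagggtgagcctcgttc
Whether either stretch is bound in these cells was not measured.

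**Figure D2:**
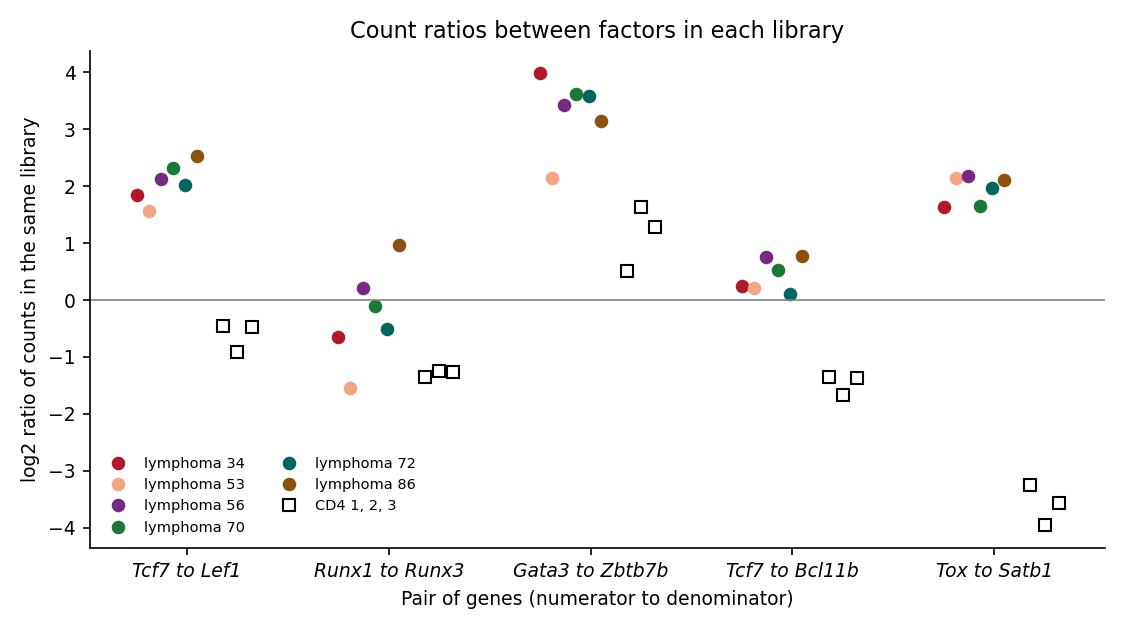
Log2 of the counts of 1 factor divided by those of another within each library, with lymphomas and CD4 libraries as separate points. Tcf7 to Lef1 lies at 1.56 to 2.53 in lymphoma (ratios of 2.95 to 5.78) and -0.91 to -0.45 in CD4 (0.532 to 0.733). Runx1 to Runx3 spreads from -1.55 to 0.97 over the lymphomas (ratios of 0.342 to 1.96) and overlaps the CD4 values.

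Ets1, the founding member of the ETS family and an activator of T cell receptor genes, was the steadiest of the factors among the tumours. The gene (ENSMUSG00000032035) lies on the plus strand at chr9:32636221-32757820. The lymphomas held 334 CPM (library 53) to 433 CPM (library 72), median 370, and CD4 1, 2 and 3 held 566, 556 and 687 CPM. No lymphoma reached the lowest CD4 library. Means of 376 ± 37.8 CPM (SD, n = 6) and 603 ± 73.1 (SD, n = 3) gave a log2 fold change of -0.68 (SE 0.140). B cells also express Ets1, and the B cell markers were higher in the CD4 libraries as given above, so their part in this difference was not tested.

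Tox, an HMG box protein needed for CD4 development in the thymus and known from exhausted T cells, did not separate the groups. The gene (ENSMUSG00000041272) lies on the minus strand at chr4:6686353-6991557. Its level was 77.4, 140, 123, 81.8, 72.9 and 107 CPM in lymphomas 34, 53, 56, 70, 72 and 86, and 92.7, 81.4 and 120 CPM in CD4 1, 2 and 3. In 2 lymphomas it was above all CD4 libraries and in 2 below them all. With means of 101 ± 27.6 CPM (SD, n = 6) and 97.9 ± 19.7 (SD, n = 3), the log2 fold change was 0.04 (SE 0.236), and its sign turned in 9 of 17 alternative settings, other scalings included. Set against Satb1 within each library, the count of Tox was 3.12 to 4.52 times that of Satb1 in lymphoma and 0.0644 to 0.106 times in CD4.

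**Figure D3:**
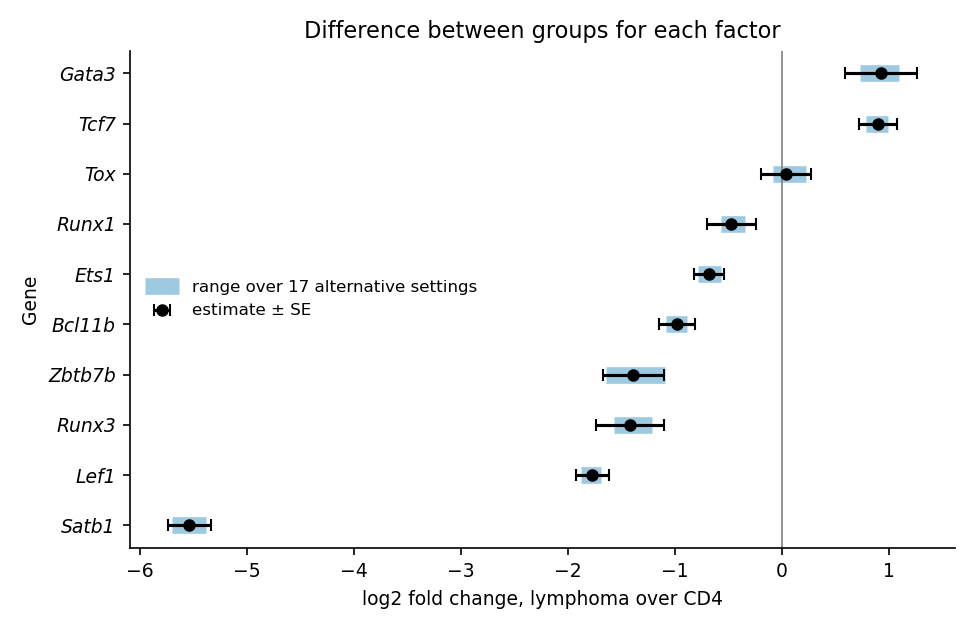
Log2 fold change of each factor, lymphoma over CD4, with black bars of 1 SE and blue bands for the range over 17 alternative settings. Satb1 is at -5.54, the other lower factors lie between -1.77 and -0.47, Tox sits at 0.04, where its sign depends on the scaling, and Tcf7 and Gata3 lie at 0.90 and 0.93.

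The differences among the lymphomas were not used to choose the factors. The median over the 10 of the SD of log2 CPM among lymphomas was 0.34, against 0.47 for all tested genes, and it fell to 0.28 without lymphoma 53. All tested genes include many of low count, and the SD depends on the level of a gene. Genes of matched level were not compared, so the shares below are not read as a trait of the factors. Ets1 (0.14), Tcf7 (0.22), Lef1 (0.23), Satb1 (0.25) and Bcl11b (0.28) varied little, and 96.1% of tested genes had a larger SD than Ets1. Runx3 (0.71) and Gata3 (0.65) varied most, with 31.5% and 34.9% of tested genes above them, and Runx1 (0.45), Zbtb7b (0.39) and Tox (0.39) fell between. Among the CD4 libraries the SD was largest for Zbtb7b (0.61) and smallest for Lef1 and Bcl11b (0.06 each).

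No single lymphoma was high or low for all factors. Lymphoma 53 was lowest for Gata3, Runx1 and Ets1 and highest for Lef1, Tox and Satb1. Relative to the median lymphoma it stood at -1.06 for Gata3 and -1.04 for Runx1 on the log2 scale, and at 0.58 for Tox. Lymphoma 86 was lowest for Runx3 (-1.52) and Lef1 (-0.28). Lymphoma 70 was highest for Tcf7, Gata3, Runx1 and Zbtb7b, with Gata3 at 0.75, and lymphoma 72 was close to it for Gata3 at 0.63. Lymphoma 53 also had the highest sum of T cell markers (3998 CPM, others 2285 to 2824), of which Thy1 made up 1535 CPM, and 269 CPM of Irf8 (others 31.9 to 72.3). The plasmacytoid dendritic cell genes Siglech and Spib were near 0 there, at 0.0913 CPM each. The part of its CD8 markers and of these genes in its factor values was not tested.

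**Figure D4:**
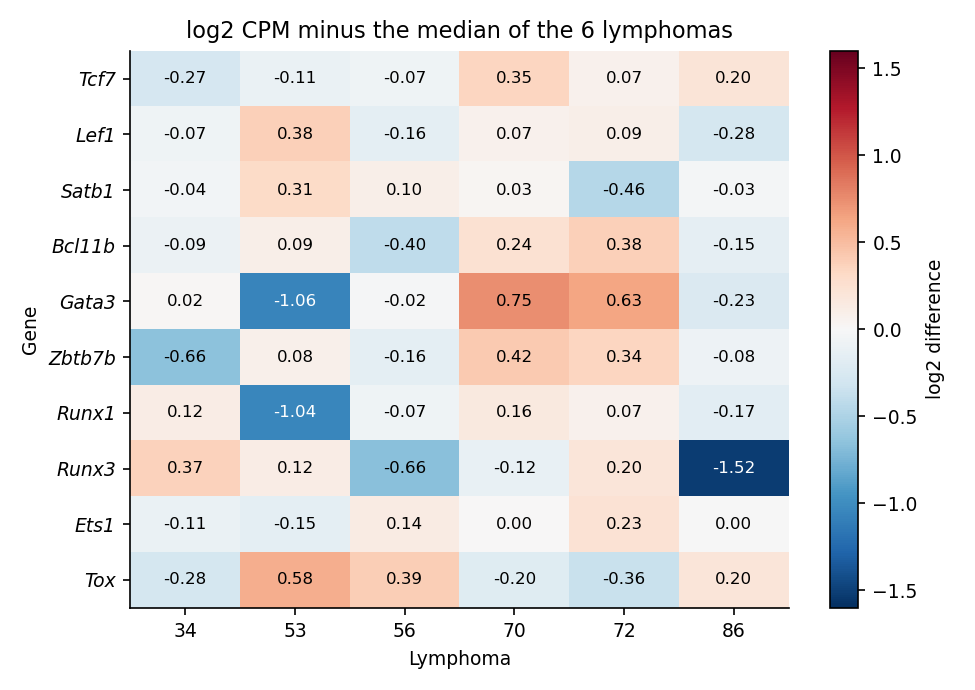
Log2 CPM of each factor in each lymphoma minus its median over the 6 lymphomas, as coloured cells with the value printed. The darkest cells are Runx3 in lymphoma 86 at -1.52 and Gata3 and Runx1 in lymphoma 53 at -1.06 and -1.04.

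Across all 9 libraries the factors closest to each other in pattern were Bcl11b and Ets1, whose centred log2 CPM differed by a root mean square of 0.28, followed by Runx1 and Ets1 at 0.31. Tcf7 was closest to Gata3, at 0.44. This measure spans both groups, so it includes the difference between them that was known when the factors were chosen. Of 9414 tested genes with an average log2 CPM of at least 3, those nearest to each factor by the same measure were Ttc3 and Eif3m for Tcf7 (0.105 and 0.106), Stk38 and Il10rb for Lef1 (0.125 and 0.128), and Osbpl9 and Zfp143 for Bcl11b (0.121 and 0.135). Nearest to Gata3 were Fam107b and Heg1 (0.173 and 0.196), to Runx1 Trappc11 and Pkn2 (0.0964 and 0.105), and to Runx3 Rrm2b and Rab33b (0.206 and 0.273). For Tox they were Cmpk1 and Rplp1 (0.135 and 0.155), for Zbtb7b D17H6S53E and Anxa5 (0.200 and 0.207), and for Ets1 Ccdc93 and Ric1 (0.106 each). Satb1 had the most distant neighbours of the 10 factors: 5830444F18Rik, which lies in its own intron, differed by 0.285 and Mast4 by 0.303. For comparison, the median difference over all 9414 genes was 0.617 from Tcf7 and 2.71 from Satb1. Nearby genes had log2 fold changes like those of their factor, such as 0.87 for Ttc3 and 0.91 for Eif3m beside Tcf7. Those of 5830444F18Rik and Mast4, beside Satb1, were -5.95 and -5.68.

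Relatives of the factors can share or replace their functions, and 17 paralogues were examined. Of these, 14 were tested, 2 rose in lymphoma and 5 fell, with a median log2 fold change of -0.42. The 7 called are 50% of those tested, near the 46.6% over all genes. The largest rise was that of Tcf7l1, a TCF family repressor best known from stem cells and epithelia, with 3.05 ± 2.51 CPM (SD, n = 3) in CD4 and 23.4 ± 6.04 (SD, n = 6) in lymphoma (log2 fold change 2.92, SE 0.485, edgeR adjusted p = 0.000458, higher in 6 of 6 lymphomas). Its size rested in part on single CD4 libraries: the log2 fold change was 2.53 without CD4 2 and 3.82 without CD4 3. Tcf7l2, which serves Wnt signalling in gut and other tissues, fell from 28.9 ± 7.96 CPM (SD, n = 3) to 3.16 ± 1.41 (SD, n = 6), or by 3.20 on the log2 scale (SE 0.378, edgeR adjusted p = 3.90e-05). The 4 TCF/LEF genes thus split, with Tcf7 and Tcf7l1 higher and Lef1 and Tcf7l2 lower. The part of the other cells in the CD4 libraries in these values was not tested.

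The largest fall among the paralogues was that of Bcl11a, the relative of Bcl11b that B cells, progenitors and dendritic cells use. It was at 318 ± 52.6 CPM (SD, n = 3) in CD4 and 5.30 ± 7.60 (SD, n = 6) in lymphoma, where library 34 alone held 20.8 CPM. The log2 fold change was -5.89 (SE 0.867, edgeR adjusted p = 0.000560), with -7.14 without lymphoma 34 and -5.68 without lymphoma 86. The B cell markers fell in 10 of 10 cases and the plasmacytoid dendritic cell markers in 6 of 6 (summed 831 to 854 CPM in CD4), and their part in the Bcl11a value was not tested. Runx2, the third runt gene, fell from 31.2 ± 9.51 CPM (SD, n = 3) to 1.93 ± 2.07 (SD, n = 6), a log2 fold change of -4.03 (SE 0.681). The change was -4.76 without lymphoma 53 and -3.74 without CD4 3. All runt genes thus had lower means in lymphoma, and the part of other cells in the CD4 libraries was not tested for Runx2 either.

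The other paralogues past the threshold were Ets2, at 77.1 ± 25.2 CPM (SD, n = 6) in lymphoma against 26.0 ± 10.5 (SD, n = 3) in CD4 (log2 fold change 1.56, SE 0.321), Fli1 (-1.02, SE 0.187) and the low-count gene Gata1 (-3.31, SE 0.760). Gata2, which the filter on low counts kept from testing, never exceeded 3 counts in a lymphoma. At a floor of 3 counts it was at least 6.40-fold below its CD4 mean. Lymphoma 53 itself held 3 counts and CD4 1 only 7, so this limit holds for the mean alone. Tox2, Tox4, Zbtb7a, Elf1, Elf4 and Gabpa were among those that did not pass the threshold. Without lymphoma 53, 11 of the 14 paralogues passed it, 3 higher and 8 lower, while the share over all genes was 53.6%.

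Proteins that the factors need as partners were measured through 16 genes, all tested. In lymphoma 3 rose and 4 fell (43.8% called, against 46.6% over all genes), and the median log2 fold change was -0.05. Cbfb, the common subunit that stabilises every runt protein on DNA, showed the largest rise, from 90.6 ± 17.5 CPM (SD, n = 3) to 209 ± 58.5 (SD, n = 6), or by 1.203 on the log2 scale (SE 0.281, edgeR adjusted p = 0.00415). Lymphoma 53, at 96.1 CPM, fell among the CD4 libraries while the other 5 lymphomas lay above them. Cbfb therefore rose while the means of Runx1, Runx2 and Runx3 were lower.

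Groucho corepressors turn TCF/LEF and RUNX proteins into repressors. Tle4 fell, with 182 ± 34.8 CPM (SD, n = 3) in CD4 and 36.7 ± 5.06 (SD, n = 6) in lymphoma (log2 fold change -2.31, SE 0.171, edgeR adjusted p = 1.32e-06), with all lymphomas below all CD4 libraries. Tle1 had the largest fall of the list, from 11.7 ± 3.08 CPM (SD, n = 3) to 1.86 ± 2.45 (SD, n = 6), at -2.67 (SE 0.909, edgeR adjusted p = 0.0318). That call was lost in 5 of the 16 settings that gave a value, among them the removal of lymphoma 34 or 56 or of CD4 2 or 3 (adjusted p of 0.00102 to 0.0886 over all of them). The log2 fold change was -3.68 without lymphoma 53 and -2.21 with lymphomas 34, 70 and 72 averaged into 1 sample. Tle3, the abundant relative, was at 166 ± 23.2 CPM (SD, n = 6) and 173 ± 14.2 (SD, n = 3) and did not pass the threshold.

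The β-catenin adaptors Bcl9 (-1.53, SE 0.374) and Bcl9l (-1.24, SE 0.286) fell, and β-catenin itself, Ctnnb1, was at 61.8 ± 7.70 CPM (SD, n = 6) in lymphoma and 54.7 ± 14.9 (SD, n = 3) in CD4 without passing the threshold. Chd4, the remodelling ATPase of the NuRD complex that Bcl11b recruits, rose by 0.62 (SE 0.143, edgeR adjusted p = 0.00378), and its complex partner Mta2 by 0.59 (SE 0.210), a call lost in 4 of 17 settings, the removal of CD4 2 or 3 among them.

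Genes of the progenitor programme that T lineage factors shut down were followed in a list of 16, of which 15 were tested. In lymphoma 8 of them fell, and edgeR called 0 higher (1 at an unadjusted p under 0.05). DESeq2 called 1 higher and limma voom 0. The 8 are 53.3% of those tested, and over all genes 46.6% were called, 21.9% as lower. The median log2 fold change was -2.71. Of those not called, Cd34 (3.37, SE 1.36, at most 2 counts in any CD4 library), Erg (0.76) and Nfe2 (0.60) had higher estimates. Lyl1 was at 5.31e-05, and Kit (-2.53), Hoxa9 (-2.76) and Cebpa (-0.55) had lower estimates. Mef2c, used by lymphoid progenitors and B cells, had the largest fall, from 279 ± 21.8 CPM (SD, n = 3) to 1.999 ± 0.963 (SD, n = 6), which is -7.14 on the log2 scale (SE 0.352, edgeR adjusted p = 1.36e-07). Other falls were those of Hhex (-4.23), Tal1 (at most 3 counts in any lymphoma), Flt3 (-3.47), Meis1 (-3.50), Lmo2 (-2.71), Spi1 (-2.11) and Bcl11a. Hhex was at -5.16 without lymphoma 34 and -3.97 without lymphoma 70. Lmo2 was at -3.59 without lymphoma 34 and -2.47 without lymphoma 53. At a floor of 3 counts, Tal1 was at least 5.45-fold below its CD4 mean, although lymphoma 53 itself held 3 counts.

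Most of these genes are also active in B, dendritic or myeloid cells. The B cell, plasmacytoid dendritic and most myeloid markers were higher in the CD4 libraries too (Ctss at 268.5 to 525 CPM against 14.3 to 42.3), and their part in the progenitor values was not tested. The calls of Spi1, Meis1 and Lmo2 were lost in 8 of 17, 1 of 16 and 2 of 16 settings, each of them without CD4 1, and without that library 5 progenitor genes were called (40.2% over all genes). Only 4 of the list had at least 10 counts in every library, and 3 of those were called with that filter (52.7% over all genes).

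Genes described as targets of the factors, or as marks of the stages they govern, made up the last list. Of 24 listed, 20 were tested, 2 rose and 9 fell (55.0% called, against 46.6% over all genes), with a median log2 fold change of -1.39. Cd3e, a chain of the T cell receptor complex, was at 176 ± 23.5 CPM (SD, n = 6) in lymphoma and 157 ± 30.0 (SD, n = 3) in CD4 and did not pass the threshold, nor did Cd3d, Cd3g, Cd5, Cd6 or Thy1. Genes typical of naive T cells were among those that fell. Ccr7, a chemokine receptor that guides cells into lymph nodes, went from 175 ± 32.2 CPM (SD, n = 3) to 14.5 ± 6.64 (SD, n = 6), or -3.59 on the log2 scale (SE 0.357, edgeR adjusted p = 1.42e-05). Il7r, the survival receptor for interleukin 7, changed by -3.99 (SE 0.506).

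Among targets tied to single factors, Cd4, which Zbtb7b protects and Runx3 silences, fell from 240 ± 35.5 CPM (SD, n = 3) to 35.3 ± 29.2 (SD, n = 6), at -2.76 (SE 0.717, edgeR adjusted p = 0.0111). Lymphomas 34, 70 and 72 held 62.6, 48.6 and 71.9 CPM of Cd4, and lymphomas 53, 56 and 86 held 13.8, 6.04 and 9.02. The change of Cd4 was -3.38 with lymphomas 34, 70 and 72, those highest in Cd4, averaged into 1 sample. It was -2.50 without lymphoma 56. Axin2, a read-out gene of β-catenin with TCF/LEF, changed by -1.72 (SE 0.373), and Themis, a thymocyte signalling gene, by -1.64 (SE 0.380). Id2 and Nkg7, genes of innate and cytotoxic cells that Bcl11b holds down, fell by 3.92 (SE 0.185) and 2.65 (SE 0.734) on the log2 scale. The call of Nkg7 was lost without the filter on low counts, and its change was -3.33 with limma voom and -2.39 without lymphoma 86. Natural killer cells also express both genes, and the part of the natural killer transcripts given above was not tested. Cd2 changed by -1.15 (SE 0.302). Rag1, Rag2 and Ptcra, which mark immature thymocytes, were below the filter for testing in these libraries.

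Both targets that rose are known from progenitor or innate-like T cells. Myb, a progenitor and thymocyte factor, was at 251 ± 72.9 CPM (SD, n = 6) in lymphoma and 34.4 ± 4.87 (SD, n = 3) in CD4, a rise of 2.87 on the log2 scale (SE 0.302, edgeR adjusted p = 1.70e-05, higher in 6 of 6 lymphomas). Zbtb16, which encodes PLZF and directs innate-like T cells, had the largest rise of the list but not in all tumours: lymphoma 53 held 0.274 CPM, the other 5 held 89.0 to 140, and the CD4 libraries 2.67 to 7.43. Its log2 fold change was 4.22 (SE 1.30, edgeR adjusted p = 0.0270). The call was lost in 6 of 16 settings, among them the removal of any 1 CD4 library, with adjusted p from 6.13e-07 without lymphoma 53 to 0.526 with limma voom, where the log2 fold change was 3.31.

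**Figure D5:**
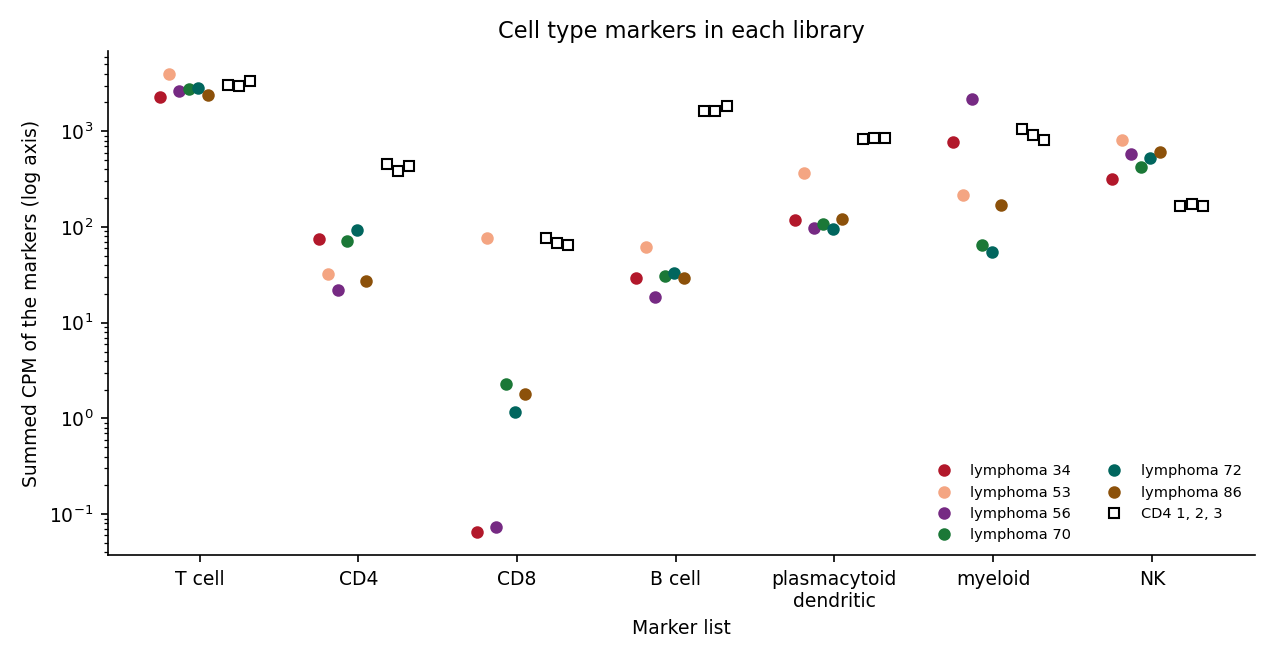
Summed CPM of the markers of each cell type in each library, on a log axis. The T cell sums of both groups lie between 2285 and 3998 CPM, while the B cell sum is 1626 to 1855 in CD4 and 18.5 to 61.8 in lymphoma, and the CD8 sum of lymphoma 53 (77.0) lies at the CD4 level.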

How the data were processed

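The 10 factors and all gene lists were chosen with earlier results of these data known. The authors deposited 1 table of raw read counts per Ensembl gene and library. FastQC, HISAT2, SAMtools and HTSeq and the builds mm10 and GRCm38 are named, per the submitters' processing notes; versions, annotation and strand setting are not given in the sources used here. The 5 summary rows, which hold reads assigned to no gene (50.9 to 61.3% of reads in lymphoma, 65.0 to 72.2% in CD4), stayed out of library sizes and tests. The number of columns of no sample was 0.

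Differences in the counts were tested by edgeR 4.0.16 under R 4.3.3 (filterByExpr with a minimum count of 10, TMM scaling, robust glmQLFit and glmQLFTest, all 9 libraries, no covariate), with Benjamini-Hochberg adjustment over 15401 genes and a threshold of 0.05. The fit was also run on simulated counts with a smaller spread between samples than these data. That run therefore does not show how many true changes the fit finds here. CPM is relative to TMM-scaled library sizes, with a prior count of 2 on the log2 scale. Floors of 3 counts cover counting error only: without molecular identifiers, reads cannot be taken as independent molecules. They leave no margin in lymphoma 53, which held 3 counts of Gata2 and of Tal1. Gene positions come from GENCODE M21, matched by Ensembl ID, and upstream sequences from RefSeq.

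Genes named are all 10 factors, the largest rise and largest fall of every other list among genes past the threshold, and the 2 nearest genes in pattern for each factor. Any other gene was named after its values were seen, and some listed genes are not reported here. Alternatives were RLE, upper quartile and library size scaling, no filter, at least 10 counts in every library, DESeq2 1.42.0, limma voom (limma 3.58.1), lymphomas 34, 70 and 72 averaged into 1 sample, and each library left out in turn. Samples were averaged because the labels do not say that the tumours were independent. The labels do not set lymphomas 34, 70 and 72 apart from the others, so the averaging does not settle independence. They were the lymphomas with the most Cd4, so averaging them also lowered the weight of tumours with high Cd4. For genes outside the factors these alternatives were chosen after seeing the data.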

Additional observations from a re-analysis of the deposited data

Results flagged for a closer look

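Of 24 values examined for a single lymphoma far from the other 5, 6 met the criterion, the gap to the nearest library being large against the whole range (Dixon's 95% limit), where chance alone would give about 1.2. Among the 10 factors this was Runx1, at 42.4 CPM in lymphoma 53 and 77.5 to 97.4 in the others. The remaining 5 were marker sums. Lymphoma 53 had 3998 CPM of T cell markers (others 2285 to 2824), 1535 CPM of it from Thy1. Its CD8 markers, Cd8a and Cd8b1, summed to 77.0 CPM (others 0.0645 to 2.27). Its B cell markers summed to 61.8 CPM (others 18.5 to 33.0), of which Cd74 alone made up 57.1, and without Cd74 the sum was 4.75 there and 4.32 to 8.88 over all lymphomas. Its plasmacytoid dendritic cell markers summed to 368 CPM (others 95.8 to 119.9), of which Irf8 alone made up 269, with Siglech and Spib at 0.0913 each. Lymphoma 56 had 2173 CPM of myeloid markers, with 54.8 to 771 in the others, and S100a8 and S100a9 made up 1035 and 989 CPM of it.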

How the results depend on the processing

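Over 17 alternative settings, Tcf7, Lef1, Bcl11b, Runx3, Zbtb7b, Ets1 and Satb1 kept direction and call in 17 of 17. Gata3 kept its direction in all and its call in 4. Between 7 and 9 of the 10 factors were called, and 5574 to 8137 of all genes. The share of tested genes called ran from 29.0% with no filter to 53.6% without lymphoma 53. The log2 fold change of Tox turned to -0.0193 with RLE scaling, -0.0678 with upper quartile scaling, -0.0112 with library size alone, -0.0296 with at least 10 counts in every library, -0.0195 with DESeq2 and -0.00112 with limma voom, and ran from -0.0862 to 0.216 with 1 library left out. The cause was not tested. With 1 library left out, 7 to 11 paralogues and 5 to 9 progenitor genes were called, and 36.7 to 53.6% of all genes tested. With at least 10 counts in every library, 3 progenitor genes were called of 4 tested (52.7% over all genes), fewer genes having entered. The Runx1 call without lymphoma 53 came with a smaller log2 fold change, -0.34. Few counts in 1 group limit the precision of genes such as Tcf7l1, Hhex, Tle1, Flt3, Gata1, Tal1 and Meis1. No paired analysis was possible because the groups share no replicate number.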
